A study of Mus musculus with 8 samples.

Results

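Respiratory complex I (NADH:ubiquinone oxidoreductase) was examined through every gene whose mouse symbol begins with Nduf or mt-Nd, which gave 54 of the 21959 genes in the deposited table. They comprised 7 mitochondrially encoded subunit genes (mt-Nd), 37 nuclear subunit genes, 8 Ndufaf assembly factor genes and 2 genes that carry the name without being lasting subunits of the complex (Ndufa4, whose product is now placed in complex IV, and Ndufa4l2). RNA was sequenced from putative primordial oocytes of P1 (postnatal day 1) ovaries of Rbpms2 knockout mice (KO1 to KO4) and wild-type mice (WT1 to WT4), 4 libraries per genotype. RBPMS2 binds RNA through an RNA recognition motif. Each library came from a tube of 5 to 10 oocytes picked by mouth pipette, and its mRNA was amplified for 18 cycles. The labels give neither the mouse strain nor the knockout allele, nor whether each tube had its own donor animal, and p-values therefore reflect only how far these tubes differ, which may be partly technical. Because each library pools cells, fewer cells of a type and less RNA per cell cannot be told apart.

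Complex I is the largest enzyme of the respiratory chain. Its matrix arm takes electrons from NADH at a flavin in the NADH module and passes them along iron-sulfur clusters to ubiquinone in the quinone module, and its membrane arm pumps protons. All mt-Nd products are core subunits of the membrane arm, the catalytic core of the matrix arm is made by nuclear genes, and the remaining nuclear subunits are accessory. Assembly factors such as the Ndufaf proteins bind assembly intermediates and are absent from the finished enzyme. In early oocytes of humans and Xenopus the assembled complex has been reported to be missing from the respiratory chain. RNA levels, which are all that was measured here, do not show whether protein or assembled complex was present.

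Several mitochondrial genes have near-identical copies in the nuclear genome, and the sequences below, from GENCODE M21 (GRCm38), show how little separates gene from copy for the pair of mt-Nd genes that were read lowest. Over 294 aligned bases mt-Nd4l (chrM:9877-10173, plus strand) had 0 mismatches with the annotated nuclear copy Gm10222 (chr1:24612407-24612700, minus strand). Over 345 aligned bases mt-Nd3 (chrM:9459-9806, plus strand) had 1 mismatch with Gm28438 (chr1:24612775-24613119, minus strand), written T3C with positions counted from the first base of mt-Nd3 and the mitochondrial base given before the copy's. Capitals mark the mismatched base of mt-Nd3 and the last 3 bases of mt-Nd4l, which lie outside the aligned copy. The first 300 bases of mt-Nd3 are shown (chrM:9459-9758).
mt-Nd4l: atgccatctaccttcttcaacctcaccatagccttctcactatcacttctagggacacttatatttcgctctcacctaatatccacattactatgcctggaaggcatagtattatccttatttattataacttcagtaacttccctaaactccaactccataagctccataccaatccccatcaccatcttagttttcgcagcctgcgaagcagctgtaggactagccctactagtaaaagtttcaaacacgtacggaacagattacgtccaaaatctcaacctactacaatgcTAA
mt-Nd3: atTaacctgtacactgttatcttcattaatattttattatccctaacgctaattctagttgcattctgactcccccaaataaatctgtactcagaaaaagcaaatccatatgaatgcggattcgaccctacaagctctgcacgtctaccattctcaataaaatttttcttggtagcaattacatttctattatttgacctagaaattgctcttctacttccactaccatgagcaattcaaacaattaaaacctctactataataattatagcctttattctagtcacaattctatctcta

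Promoters of 3 nuclear members with large differences between genotypes are shown next, from RefSeq (GRCm38.p6), each holding 250 bases before and 50 bases after the annotated start and read along the gene's own strand. Ndufs8 (chr19:3912725-3913024, minus strand) and Ndufaf1 (chr2:119662785-119663084, minus strand) each held the ETS core CCGGAAG, the type of site bound by GABPA. Ndufs7 (chr10:80249199-80249498, plus strand) held the YY1 core AAGATGGC just past its start. All 3 promoters shown hold a core, and they do not stand for every member with a large difference. Ndufv3, with a log2 fold change (knockout minus wild type) of -1.32 beside -1.06 for Ndufs7, held none of the cores searched. No listed promoter matched Ndufs1. Capitals mark the match on either strand.
Ndufs8: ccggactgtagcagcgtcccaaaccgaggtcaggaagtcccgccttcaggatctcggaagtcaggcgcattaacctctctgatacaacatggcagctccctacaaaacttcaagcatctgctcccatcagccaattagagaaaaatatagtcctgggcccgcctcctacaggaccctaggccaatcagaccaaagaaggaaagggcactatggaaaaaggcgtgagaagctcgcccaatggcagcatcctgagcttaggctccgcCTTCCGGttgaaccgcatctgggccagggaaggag
Ndufs7: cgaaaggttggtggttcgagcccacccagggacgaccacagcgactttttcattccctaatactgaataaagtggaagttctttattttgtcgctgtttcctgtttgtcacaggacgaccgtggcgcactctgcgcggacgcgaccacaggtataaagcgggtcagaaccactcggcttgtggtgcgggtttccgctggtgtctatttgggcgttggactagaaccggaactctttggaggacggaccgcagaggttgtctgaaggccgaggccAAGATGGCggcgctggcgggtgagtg
Ndufaf1: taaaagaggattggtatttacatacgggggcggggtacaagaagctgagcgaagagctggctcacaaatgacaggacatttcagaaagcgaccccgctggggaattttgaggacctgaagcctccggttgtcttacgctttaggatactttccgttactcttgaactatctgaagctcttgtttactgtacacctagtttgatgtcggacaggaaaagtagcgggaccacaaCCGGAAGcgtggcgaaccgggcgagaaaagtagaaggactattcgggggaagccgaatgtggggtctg

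Reads assigned to listed genes were recovered from the steps of the FPKM values (fragments per kilobase of exon, scaled to the library total), and library totals were 9564416 to 14542893 in knockout oocytes and 8321942 to 11941359 in wild-type oocytes. Rbpms2 itself had 38.4, 58.3, 31.0 and 42.5 FPKM in KO1 to KO4, against 158, 167, 136 and 213 FPKM in WT1 to WT4 (log2 fold change -1.98, limma adjusted p = 7.26e-05). The deleted part of the gene is not given in the labels. All 8 listed oocyte markers were tested, of which 3 were higher and 5 lower in knockout oocytes, and their summed FPKM spanned 1779 to 2815 in knockout and 4216 to 6297 in wild-type libraries, without overlap. Among them, the germ cell RNA-binding protein gene Dazl averaged 521 ± 114 FPKM in knockout and 249.9 ± 57.4 FPKM in wild-type oocytes (SD, n = 4 each), and the oocyte transcription factor gene Figla 178 ± 85.1 FPKM in knockout and 764 ± 55.9 FPKM in wild-type oocytes. Summed FPKM of somatic markers varied widely between tubes: pregranulosa markers spanned 8.08 to 285 in knockout and 1.57 to 40.0 in wild-type libraries, stromal markers 4.83 to 318 in knockout and 3.37 to 72.2 in wild-type libraries, and immune markers 16.1 to 306 in knockout and 0.126 to 16.6 in wild-type libraries. KO3 and WT3 had the highest sum of their genotype for each of these 3 lists. Endothelial markers spanned 3.02 to 118 in knockout and 1.04 to 2.66 in wild-type libraries, surface epithelium markers 1.37 to 127 in knockout and 4.85 to 13.1 in wild-type libraries, smooth muscle markers 0.719 to 8.98 in knockout and 6.67 to 16.3 in wild-type libraries, and erythroid markers 99.6 to 3212 in knockout and 11.9 to 5354 in wild-type libraries. Of 4 tested immune markers 2 were higher and 0 lower in knockout oocytes. Of 3 tested surface epithelium markers 1 was higher and 1 lower, and of 2 tested smooth muscle markers 1 was lower. No other somatic marker was called. Over all genes, 11235 passed the filter of at least 1 FPKM in at least 4 libraries, and limma called 4871 of them at an adjusted p under 0.05 (43.4%), 1991 higher (17.7%) and 2880 lower (25.6%) in knockout oocytes. The median log2 fold change over all tested genes was -0.12.

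Complex I genes were well represented in these oocytes, and 52 of the 54 passed the filter. Of these 52, 8 were higher and 14 lower in knockout oocytes, so 42.3% were called beside 43.4% of all genes, a share near the background. By class the counts were as follows. Of the 7 mt-Nd genes 0 were higher and 4 lower (median log2 fold change -0.79), of the 36 tested nuclear subunit genes 6 were higher and 8 lower (median -0.27), and of the 8 Ndufaf genes 2 were higher and 2 lower (median 0.11). The Ndufaf median moved with single libraries: it was -0.04 without WT4, 0.01 without KO3, 0.17 without WT1, 0.20 without WT2 and 0.22 without KO1. After removal of each library's trend with the GC content of genes (the GC correction), the median was -1.67 for mt-Nd genes and -0.08 for nuclear subunit genes. Libraries of the genotypes did not overlap for 9 higher and 14 lower members, where 39.9% of all tested genes did so, 15.9% higher and 24.0% lower. WT3, KO2 and KO3 were taken as rich in somatic markers in an earlier look at these data. In the marker lists used here, KO2 had the highest knockout sum only for smooth muscle markers. Leaving out these libraries gave 5 lower mt-Nd genes, 4 higher and 8 lower nuclear subunit genes, and 2 higher and 2 lower Ndufaf genes.

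**Figure D1:**
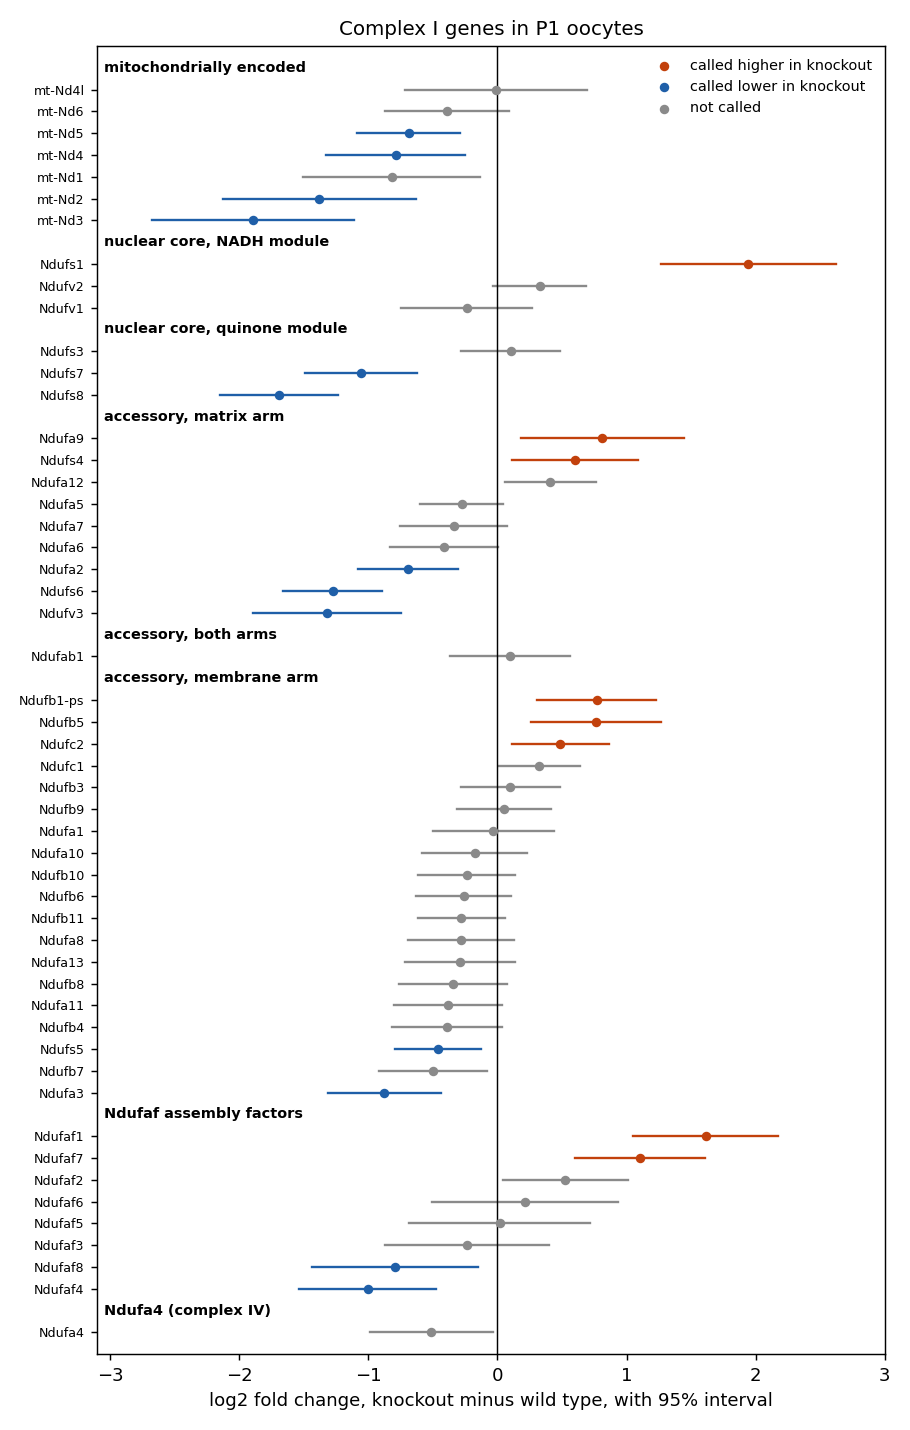
Log2 fold change (knockout minus wild type, horizontal axis) with its 95% limma interval for tested complex I genes, grouped by role; colour shows whether the gene was called higher, called lower or not called. All 7 mt-Nd points lie below 0, that of mt-Nd4l only at -0.01. Nuclear subunits and Ndufaf genes lie on either side, from -1.69 for Ndufs8 to 1.94 for Ndufs1.

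Summed over its class, the mt-Nd signal averaged less in knockout oocytes, and the Ndufaf sums of the genotypes lay close together. The mt-Nd genes took 1.38, 2.30, 1.98 and 1.26% of all FPKM in KO1 to KO4, against 2.08, 2.74, 3.69 and 3.58% in WT1 to WT4. KO2 lay above WT1, so the genotypes overlapped. The nuclear subunit genes took 2.41, 2.35, 2.17 and 2.34% in KO1 to KO4, against 2.45, 2.50, 2.94 and 2.55% in WT1 to WT4, and these libraries did not overlap although KO1 and WT1 lay close together. The Ndufaf genes together took 0.0802 ± 0.00956% of FPKM in knockout and 0.0786 ± 0.0123% in wild-type oocytes (SD, n = 4 each), with overlapping libraries. Means of log2(FPKM + 1), which weigh every gene equally, did not overlap between genotypes for the Ndufaf, the mt-Nd or the nuclear subunit genes. For the Ndufaf genes they were 4.63 to 4.77 in knockout and 4.39 to 4.60 in wild-type libraries, and for the mt-Nd genes 7.68 to 8.33 in knockout and 8.42 to 9.17 in wild-type libraries. For the nuclear subunit genes they were 6.76 to 6.87 in knockout and 6.92 to 7.03 in wild-type libraries. These means were taken without rescaling of the libraries. Median-of-ratios scaling divides each library by its median ratio to the genes' geometric means. Its factors were 0.89 to 1.07 in knockout and 1.05 to 1.16 in wild-type libraries. With it the median log2 fold change of nuclear subunit genes was -0.12, beside -0.27 as reported. The ratio of the mt-Nd sum to the nuclear subunit sum was 0.749 ± 0.227 in knockout and 1.15 ± 0.236 in wild-type oocytes, also with overlap. Ndufa1 alone, a small membrane arm subunit with the highest level among nuclear members, had 2071 ± 444 FPKM in knockout and 2105 ± 429 FPKM in wild-type oocytes, and mt-Nd1, the highest of all members, had 2707 ± 1282 FPKM in knockout and 4531 ± 1146 FPKM in wild-type oocytes, so these members weigh heavily in the sums.

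**Figure D2:**
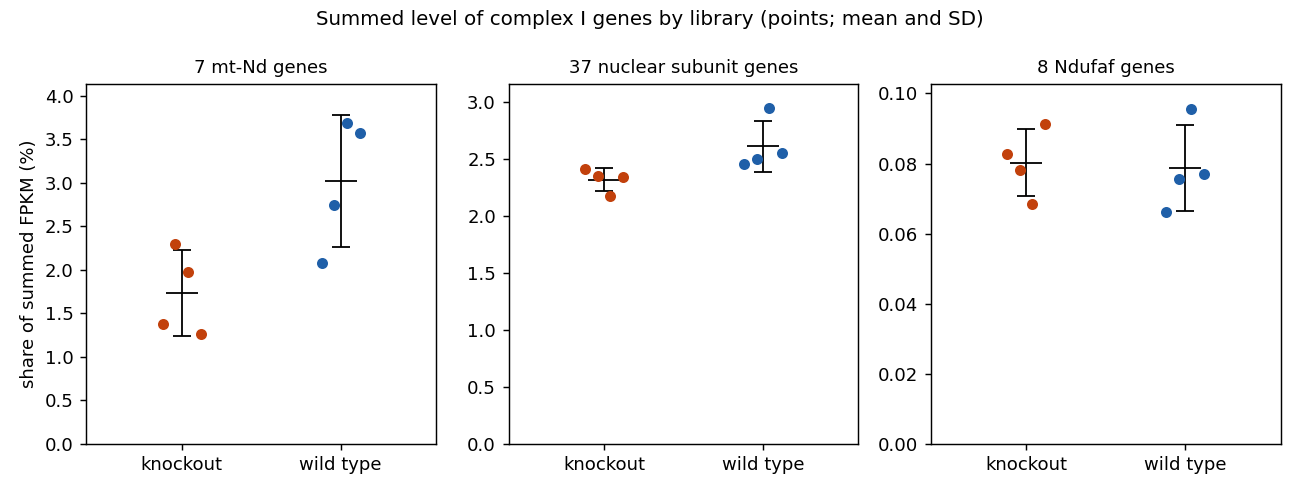
Share of all FPKM (%) taken by the 7 mt-Nd, 37 nuclear subunit and 8 Ndufaf genes in each library (points), with mean and SD (bars), knockout left and wild type right in each panel. The mt-Nd share averaged 1.73% in knockout and 3.02% in wild-type libraries with overlap, and the Ndufaf shares were nearly level.

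The mitochondrially encoded subunits mt-Nd2, mt-Nd3, mt-Nd4 and mt-Nd5 fell in knockout oocytes. The products of mt-Nd2, mt-Nd4 and mt-Nd5 are the antiporter-like, proton-pumping subunits of the membrane arm, and that of mt-Nd3 lies where the arms meet. mt-Nd2 had 552, 926, 1034 and 394 FPKM in KO1 to KO4, against 1129, 1509, 2369 and 2375 FPKM in WT1 to WT4, a log2 fold change of -1.38 (SE 0.34, limma adjusted p = 0.00733). Every knockout library lay below every wild-type library. mt-Nd4 had 623, 889, 778 and 546 FPKM in KO1 to KO4, against 906, 1002, 1836 and 1262 FPKM in WT1 to WT4 (log2 fold change -0.79, SE 0.24, limma adjusted p = 0.0233). KO2 came within a small margin of WT1, but the genotypes did not overlap. mt-Nd5 had 811, 877, 959 and 724 FPKM in KO1 to KO4, against 1182, 1238, 1803 and 1268 FPKM in WT1 to WT4 (log2 fold change -0.69, SE 0.18, limma adjusted p = 0.0105). These libraries did not overlap, and WT3 stood above the rest. mt-Nd3 showed the largest difference of the class, with 17.2, 48.0, 31.4 and 16.8 FPKM in KO1 to KO4, against 65.5, 82.7, 139 and 125 FPKM in WT1 to WT4 (log2 fold change -1.89, SE 0.36, limma adjusted p = 0.00167), again with no overlap.

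For mt-Nd1, mt-Nd6 and mt-Nd4l the difference did not pass the test. mt-Nd1, whose product forms much of the quinone channel, had 1814, 4478, 2821 and 1714 FPKM in KO1 to KO4, against 3073, 4553, 4623 and 5875 FPKM in WT1 to WT4 (log2 fold change -0.82, 95% interval -1.50 to -0.13, limma adjusted p = 0.0538). KO2 came close to WT2, lay above WT1 and stood far above the other knockout libraries, and without KO2 the value was -1.10 with an adjusted p of 0.0082. mt-Nd6, which alone among them is transcribed from the opposite strand, had 528, 601, 826 and 542 FPKM in KO1 to KO4, against 621, 732, 1109 and 827 FPKM in WT1 to WT4 (log2 fold change -0.39, interval -0.87 to 0.09, limma adjusted p = 0.17). KO3 lay within the wild-type range. mt-Nd4l had 4.61, 2.78, 2.26 and 4.93 FPKM in KO1 to KO4, against 2.54, 3.73, 2.79 and 5.66 FPKM in WT1 to WT4 (log2 fold change -0.01, interval -0.71 to 0.69, limma adjusted p = 0.98). These values rest on 16, 12, 8 and 14 reads in knockout and 9, 11, 7 and 14 reads in wild-type libraries, so a difference within that interval was not detectable at this depth.

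The levels of the mitochondrial genes differed by orders of magnitude, although mt-Nd4l and mt-Nd4 are known to share an mRNA. Among the 13 mitochondrial protein genes, those with at least 98.0% of their 50-base windows also present in another annotated gene were mt-Nd3 (98.0%), mt-Nd4l (98.8%), mt-Atp6 (99.5%), mt-Co3 (99.9%) and mt-Co2 (100%), and these averaged 3.64 to 31.1 FPKM in knockout and 3.68 to 103 FPKM in wild-type oocytes. mt-Nd1 and mt-Nd6 shared no window, mt-Nd5 shared 7.6%, mt-Nd2 8.2% and mt-Nd4 62.2%, and these averaged 624 to 2707 FPKM in knockout and 822 to 4531 FPKM in wild-type oocytes. mt-Atp8 was low while sharing no window. How reads with several possible origins were counted is not given in the sources used here, and the part of such reads in the levels of mt-Nd3 and mt-Nd4l was not tested. The nuclear copies were not analysed here.

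**Figure D3:**
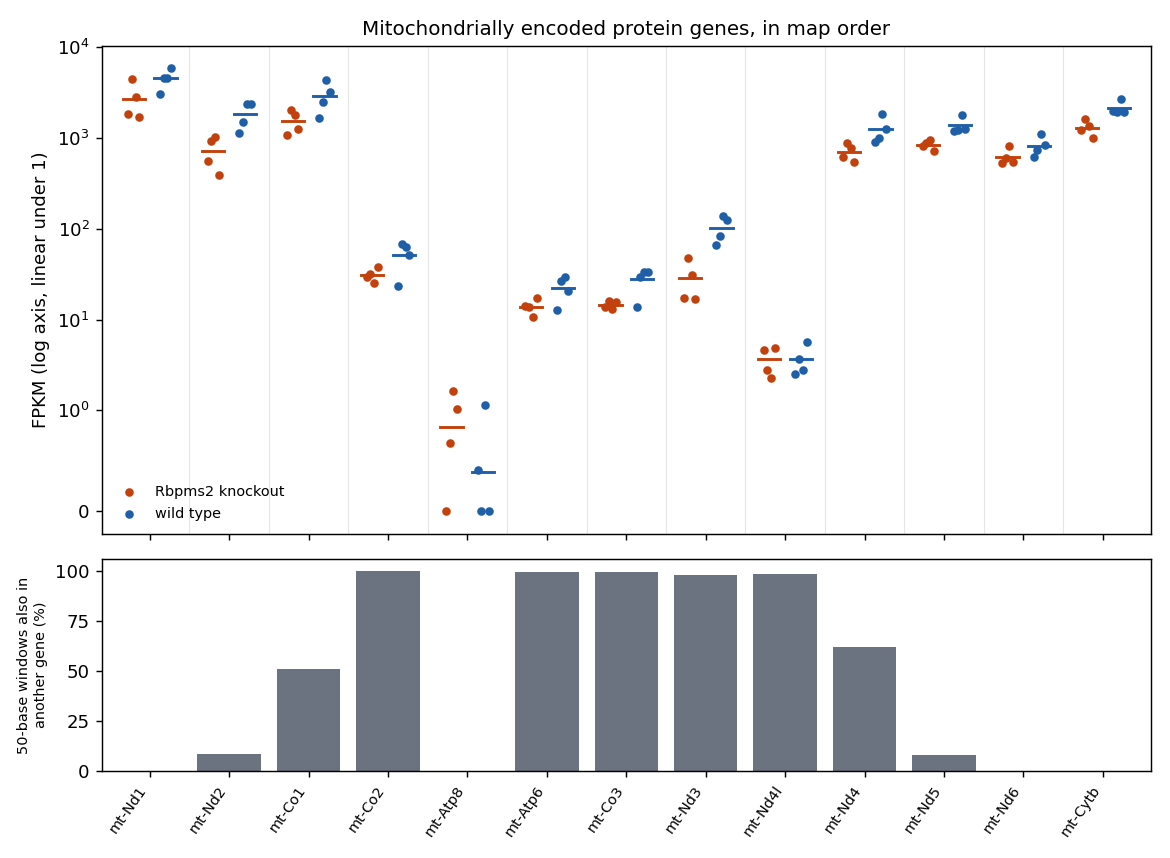
Upper panel, FPKM of the 13 mitochondrially encoded protein genes in map order, with 1 point per library, a line at the mean, knockout left of wild type, on a log axis that is linear under 1; lower panel, percent of each gene's 50-base windows found in another annotated gene. The genes with 98.0% or more shared windows are low in every library. No overlap between genotypes is seen for mt-Nd2, mt-Nd3, mt-Nd4, mt-Nd5 and mt-Cytb.

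Of the other mitochondrially encoded protein genes, 3 of 5 tested were lower and 0 were higher (25.6% and 17.7% of all genes), and their median log2 fold change was -0.71. mt-Cytb, the mitochondrial subunit of complex III, averaged 1303 ± 265 FPKM in knockout and 2126 ± 366 FPKM in wild-type oocytes (SD, n = 4 each, log2 fold change -0.71, limma adjusted p = 0.0123). mt-Co1, the catalytic subunit of complex IV, averaged 1535 ± 432 FPKM in knockout and 2927 ± 1118 FPKM in wild-type oocytes (log2 fold change -0.89, limma adjusted p = 0.032). mt-Co3 averaged 14.5 ± 1.42 FPKM in knockout and 27.7 ± 9.45 FPKM in wild-type oocytes (log2 fold change -0.81, limma adjusted p = 0.0378). Libraries of the genotypes did not overlap for mt-Cytb, but did for mt-Co1 and mt-Co3. Without any filter on low values, mt-Nd2 and mt-Nd3 were the only mt-Nd genes called and none of these others was. WT3, rich in somatic markers, had the highest mt-Nd share of the wild-type libraries (3.69%), with WT4 close to it (3.58%). KO2 (2.30%) and KO3 (1.98%) had the highest of the knockout libraries. The part of other cell types in the mitochondrial values was not tested.

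Among the nuclear core subunits of the NADH module, Ndufs1 rose 4.35-fold in knockout oocytes while Ndufv1 and Ndufv2 did not pass the test. Ndufs1 (chr1:63143596-63176833, minus strand, GRCm38), whose product carries several iron-sulfur clusters, had 46.0, 25.0, 20.0 and 42.4 FPKM in KO1 to KO4, against 9.66, 9.37, 5.76 and 5.83 FPKM in WT1 to WT4 (log2 fold change 1.94, SE 0.31, limma adjusted p = 0.000594). Every knockout library was above every wild-type library, and on this per-length scale Ndufs1 was the lowest nuclear core subunit in both genotypes. That scale used 8086 annotated exon bases for Ndufs1, where its longest coding transcript has 2661. By reads it was not the lowest in knockout, with 4349, 2936, 1922 and 3278 in KO1 to KO4, against 864, 1669, 863 and 609 for Ndufs8. Ndufv1, which binds NADH and the flavin, had 138, 139, 82.4 and 115 FPKM in KO1 to KO4, against 188, 144, 120.2 and 108 FPKM in WT1 to WT4 (log2 fold change -0.24, interval -0.75 to 0.27). Ndufv2, an iron-sulfur partner of Ndufv1, had 239.7, 203, 175 and 203 FPKM in KO1 to KO4, against 174, 175, 139.6 and 163 FPKM in WT1 to WT4 (log2 fold change 0.33, interval -0.03 to 0.69). KO3 lay level with the upper wild-type values, and the genotypes overlapped.

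In the quinone module the core subunits Ndufs8 and Ndufs7 fell in knockout oocytes, Ndufs8 3.20-fold and Ndufs7 2.07-fold, while Ndufs3 did not pass the test. Ndufs8, which holds a pair of iron-sulfur clusters on the way to the quinone, had 57.2, 88.9, 56.1 and 49.3 FPKM in KO1 to KO4, against 179, 219.8, 178 and 229 FPKM in WT1 to WT4 (log2 fold change -1.69, SE 0.21, limma adjusted p = 0.000125). Even the highest knockout library, KO2, lay far below the lowest wild-type library. Ndufs7, which holds the last cluster before the quinone, had 100.3, 132, 76.5 and 89.1 FPKM in KO1 to KO4, against 180.1, 208, 195 and 239 FPKM in WT1 to WT4 (log2 fold change -1.06, SE 0.20, limma adjusted p = 0.00154). Its libraries did not overlap between genotypes. Ndufs3 had 124, 121, 95.8 and 105 FPKM in KO1 to KO4, against 116, 116, 86.1 and 98.4 FPKM in WT1 to WT4 (log2 fold change 0.10, interval -0.28 to 0.49), and 39.7% of its windows were shared with other annotated genes. After removal of each library's trend with GC content, Ndufs7 stood at -0.34 (limma adjusted p = 0.169), whereas Ndufs8 was called under every alternative run.

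The accessory subunits of the matrix arm went both ways, with 2 higher (22.2%) and 3 lower (33.3%) of 9 tested. Over all genes these shares were 17.7% and 25.6%. Ndufv3, a small subunit of the NADH module, had 15.6, 25.1, 33.8 and 15.2 FPKM in KO1 to KO4, against 54.8, 48.5, 64.0 and 52.1 FPKM in WT1 to WT4 (2.44-fold lower, log2 fold change -1.32, SE 0.26, limma adjusted p = 0.00223). Ndufs6, a zinc-binding subunit needed for attaching the NADH module, had 180.1, 233, 211 and 169.9 FPKM in KO1 to KO4, against 414, 449, 581 and 484 FPKM in WT1 to WT4 (2.43-fold lower, log2 fold change -1.27, SE 0.17, limma adjusted p = 0.000236). For both genes all knockout libraries lay well below all wild-type libraries. Ndufa2, with a thioredoxin-like fold, averaged 398 ± 63.7 FPKM in knockout and 640.1 ± 90.3 FPKM in wild-type oocytes (SD, n = 4 each, log2 fold change -0.69, limma adjusted p = 0.00881), and 11.5% of its exon length overlaps Tmco6.

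On the higher side of the matrix arm stood Ndufa9 and Ndufs4. Ndufa9, which binds NADPH near the junction of the arms, had 103, 121, 76.0 and 109.5 FPKM in KO1 to KO4, against 81.8, 77.6, 33.0 and 50.3 FPKM in WT1 to WT4 (log2 fold change 0.81, SE 0.29, limma adjusted p = 0.0402). KO3 lay within the wild-type range. Ndufs4, whose loss causes a Leigh-like encephalopathy in mice, had 100.1, 83.6, 111 and 83.5 FPKM in KO1 to KO4, against 82.9, 73.0, 53.5 and 44.3 FPKM in WT1 to WT4 (log2 fold change 0.60, SE 0.22, limma adjusted p = 0.0485). The genotypes did not overlap, by a margin of under 1 FPKM. After the GC correction the values were 0.68 (adjusted p = 0.0847) for Ndufa9 and 0.10 (adjusted p = 0.751) for Ndufs4, neither of which passed.

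Of the 19 tested accessory subunits of the membrane arm 3 were higher and 2 lower, and 14 did not pass. These shares were 15.8% higher and 10.5% lower, beside 17.7% and 25.6% of all genes. Ndufb1-ps, which RefSeq lists as the protein-coding gene Ndufb1, had 174, 159.6, 299 and 226 FPKM in KO1 to KO4, against 113, 119, 121 and 134 FPKM in WT1 to WT4 (log2 fold change 0.77, SE 0.21, limma adjusted p = 0.0121). Ndufb5 had 69.8, 75.0, 66.8 and 72.3 FPKM in KO1 to KO4, against 52.7, 56.5, 33.6 and 29.2 FPKM in WT1 to WT4 (log2 fold change 0.76, SE 0.23, limma adjusted p = 0.0201). Neither gene's libraries overlapped between genotypes, and both genes overlap exons of a neighbour, Cpsf2 over 12.7% and Mrpl47 over 12.3% of their exon length, so reads of the neighbour may be included. Ndufc2 had 366, 317, 377 and 451 FPKM in KO1 to KO4, against 316, 277, 251 and 232 FPKM in WT1 to WT4 (log2 fold change 0.49, SE 0.17, limma adjusted p = 0.0398), KO2 and WT1 were almost level, and the call was lost under 12 of the 20 alternatives. On the lower side, Ndufa3 had 96.4, 137, 159 and 101 FPKM in KO1 to KO4, against 223, 193, 258 and 222 FPKM in WT1 to WT4 (log2 fold change -0.88, SE 0.20, limma adjusted p = 0.00471), without overlap. Ndufs5 averaged 265 ± 12.5 FPKM in knockout and 366 ± 46.4 FPKM in wild-type oocytes (log2 fold change -0.46, limma adjusted p = 0.0309), and 31.1% of its windows were shared with BC002163.

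Ndufa12, Ndufb7 and Ndufc1 did not pass the test although their libraries did not overlap. Their log2 fold changes were 0.41 for Ndufa12 (limma adjusted p = 0.0598), -0.50 for Ndufb7 (adjusted p = 0.0531) and 0.33 for Ndufc1 (adjusted p = 0.0837). Ndufa1 stood at -0.03 (interval -0.50 to 0.43). Ndufab1, the mitochondrial acyl carrier protein present in both arms, had 10.6 ± 1.44 FPKM in knockout and 9.88 ± 1.20 FPKM in wild-type oocytes, and stood at 0.10 (interval -0.37 to 0.56). Its FPKM were taken over an annotated exon length of 6883 bases, where its longest coding transcript has 3479. Its reads ran from 503 to 1039 per library. The other 14 nuclear subunit genes that did not pass ran from -0.41 for Ndufa6 to 0.10 for Ndufb3. Ndufa4 stood at -0.51 (adjusted p = 0.0773). Ndufb2 did not pass the filter, with 0.349, 0.244, 1.48 and 0.594 FPKM in KO1 to KO4, against 1.10, 0.733, 0.800 and 0.448 FPKM in WT1 to WT4, over an annotated exon length of 5628 bases. Ndufa4l2 also did not pass, at 0.703, 0.843 and 2.77 FPKM in KO1, KO3 and KO4 and 0 reads in KO2, which allows up to 0.188 FPKM (3 reads), against 0.612, 2.48, 1.62 and 0.878 FPKM in WT1 to WT4.

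**Figure D4:**
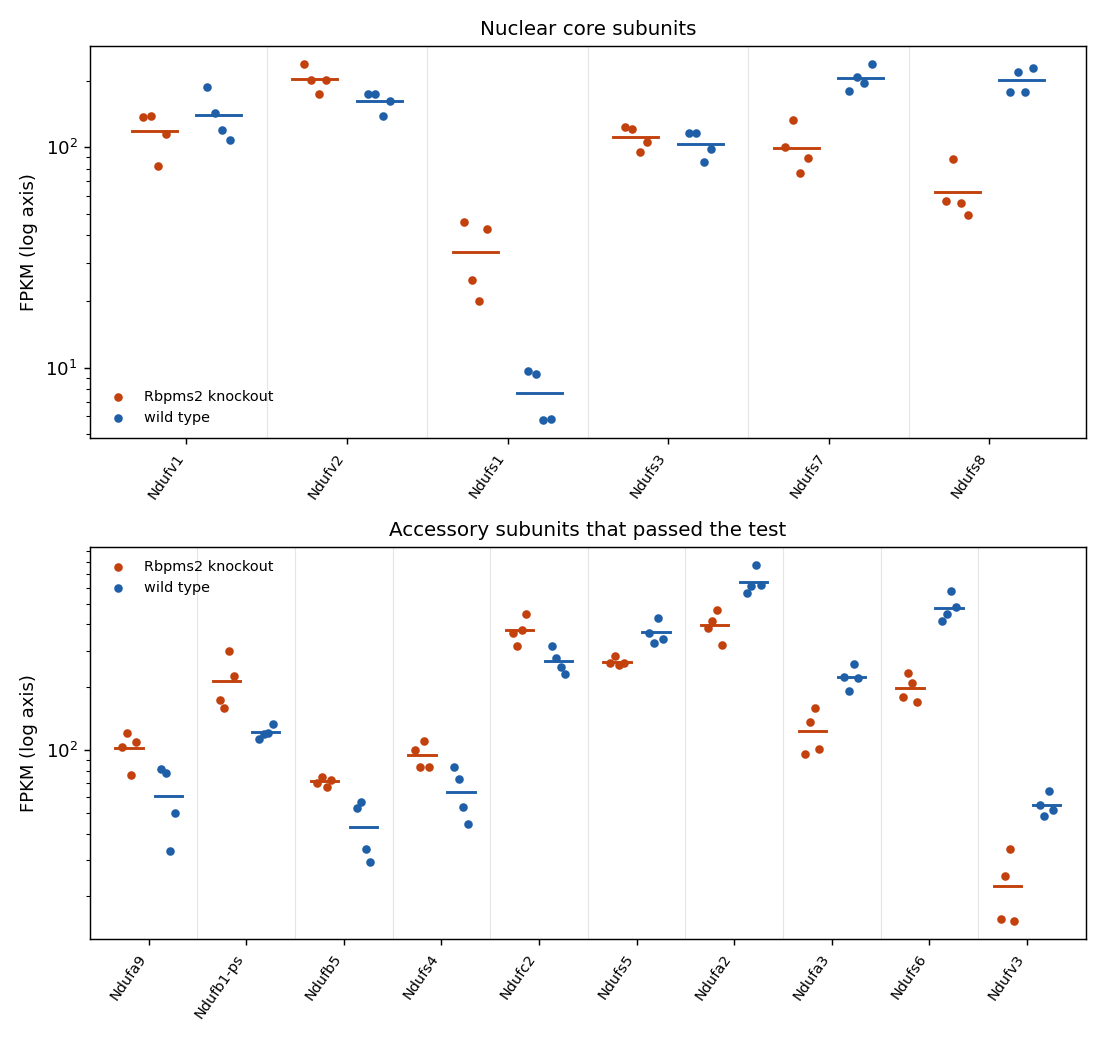
FPKM on a log axis of nuclear core subunits (upper panel) and of the accessory subunits that passed the test, ordered by log2 fold change (lower panel), with 1 point per library and a line at the mean, knockout left of wild type. Ndufs1 is above and Ndufs7 and Ndufs8 are below in all knockout libraries, and the accessory subunits run from higher on the left to lower on the right.

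Among the Ndufaf assembly factors, Ndufaf1 and Ndufaf7 rose and Ndufaf4 and Ndufaf8 fell. Ndufaf1, a member of the mitochondrial complex I intermediate assembly (MCIA) complex that builds part of the membrane arm, had 68.7, 62.0, 46.3 and 109 FPKM in KO1 to KO4, against 19.5, 25.3, 18.7 and 23.5 FPKM in WT1 to WT4 (3.29-fold, log2 fold change 1.61, SE 0.25, limma adjusted p = 0.000581). Ndufaf7, known in humans as a methyltransferase that acts on a complex I subunit, had 42.4, 26.4, 28.8 and 38.2 FPKM in KO1 to KO4, against 15.9, 19.1, 13.9 and 11.9 FPKM in WT1 to WT4 (2.23-fold, log2 fold change 1.10, SE 0.23, limma adjusted p = 0.00287). For both, every knockout library lay above every wild-type library. Ndufaf4, which works with Ndufaf3 on the quinone module, had 17.9, 15.4, 17.3 and 20.0 FPKM in KO1 to KO4, against 48.9, 46.6, 28.6 and 26.4 FPKM in WT1 to WT4 (log2 fold change -1.0, SE 0.24, limma adjusted p = 0.00652), also without overlap. Ndufaf8, known in humans to stabilise NDUFAF5, had 55.6, 98.8, 59.6 and 56.2 FPKM in KO1 to KO4, against 72.8, 102, 186 and 124 FPKM in WT1 to WT4 (log2 fold change -0.80, SE 0.29, limma adjusted p = 0.0472). KO2 lay within the wild-type range, and the call was lost under 13 of the 20 alternatives.

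Ndufaf2, Ndufaf3, Ndufaf5 and Ndufaf6 did not pass the test, with log2 fold changes of 0.53, -0.24, 0.02 and 0.21, and 65.6% of the exon length of Ndufaf2 overlaps B230220B15Rik. Ndufaf5, which in humans hydroxylates NDUFS7, was the lowest of the family at 6.33 ± 2.80 FPKM in knockout and 5.91 ± 1.21 FPKM in wild-type oocytes (SD, n = 4 each). Of 12 tested complex I assembly factors with other names, only Acad9 was called (8.33%, beside 43.4% of all genes). Acad9, an acyl-CoA dehydrogenase family member of the MCIA complex, had 6.68, 4.78, 4.28 and 6.30 FPKM in KO1 to KO4, against 0.981, 1.43, 3.01 and 0.748 FPKM in WT1 to WT4 (3.58-fold, log2 fold change 1.42, SE 0.32, limma adjusted p = 0.00476). The groups did not overlap. Its MCIA partners did not pass: Ecsit stood at -0.53 (limma adjusted p = 0.0806), Tmem126b at 0.75 (adjusted p = 0.0768) and Timmdc1 at 0.41 (adjusted p = 0.212).

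**Figure D5:**
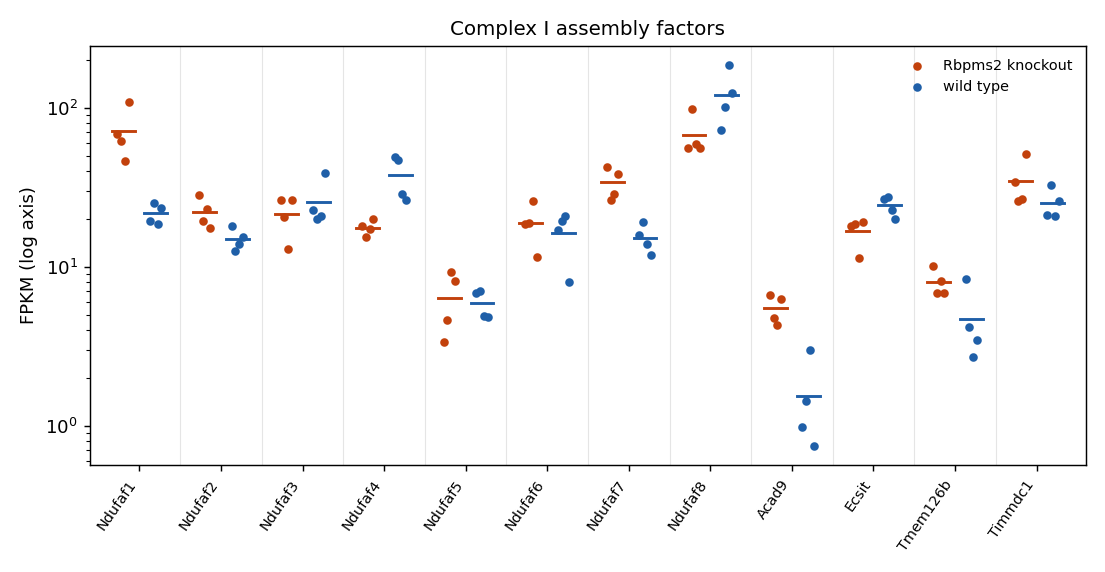
FPKM on a log axis of the 8 Ndufaf genes and of Acad9, Ecsit, Tmem126b and Timmdc1 in each library, with a line at the mean and knockout left of wild type. Ndufaf1, Ndufaf7 and Acad9 are above, and Ndufaf4 below, in all knockout libraries.

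Genes that maintain or process mitochondrial nucleic acids numbered 26 among those tested, of which 0 were higher and 6 lower (median log2 fold change -0.10). The lower share of 23.1% lies near the 25.6% of all genes, and 17.7% of all genes were higher. Elac2, the nuclease that trims the 3′ ends of tRNAs and so helps cut mitochondrial precursor RNA, averaged 7.36 ± 3.25 FPKM in knockout and 41.4 ± 5.65 FPKM in wild-type oocytes (5.62-fold lower, log2 fold change -2.42, limma adjusted p = 0.000124). Hsd17b10, a component of the mitochondrial RNase P, had 33.8, 74.5, 91.3 and 13.9 FPKM in KO1 to KO4, against 253, 188, 139 and 206 FPKM in WT1 to WT4 (log2 fold change -2.15, limma adjusted p = 0.00476). Its libraries did not overlap between genotypes. Fastkd1, a mitochondrial RNA-binding protein, averaged 1.48 ± 0.910 FPKM in knockout and 6.47 ± 0.933 FPKM in wild-type oocytes (log2 fold change -1.65, limma adjusted p = 0.00174). Of 9 tested regulators of nuclear respiratory genes 0 were higher and 3 lower (33.3%, beside 25.6% of all genes). These were Pprc1, a PGC-1-related coactivator (4.61 ± 1.28 FPKM in knockout and 18.1 ± 1.02 FPKM in wild-type oocytes, log2 fold change -1.79, limma adjusted p = 0.000175), its partner Hcfc1 (log2 fold change -1.19, adjusted p = 0.00679) and the low-level nuclear receptor gene Esrra (log2 fold change -1.18, adjusted p = 0.00876). After the GC correction Esrra stood at -0.31 (limma adjusted p = 0.404).

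Promoters listed in RefSeq matched 41 of the 47 nuclear members. A gene counted as a carrier when any of its listed promoters held the core. The YY1 core AAGATGGC was present on either strand in 8 of them (19.5%), where 3.19% of 27025 RefSeq gene symbols held it. Its carriers were Ndufa3, Ndufa9, Ndufaf8, Ndufb8, Ndufc1, Ndufs4, Ndufs6 and Ndufs7, and they included genes that were higher and genes that were lower. The NRF1 core GCATGCGC was present in 5 members (12.2%, against 3.05% of all gene symbols) and the ETS core CCGGAAG in 6 (14.6%, against 9.93%). The background takes in every listed gene symbol, whether or not the gene was expressed in these oocytes. Shares among the tested genes were not computed, so the members are set beside an unlike set. These are matches of letters only.

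Nuclear members with a higher transcript GC content had lower fold changes, as did genes in general. Across the 36 tested nuclear subunit genes the Spearman correlation of GC percent with log2 fold change was -0.48, and across 11220 tested genes it was -0.37; genes are not independent replicates, and all share the same 8 libraries. Nuclear subunits that were higher had a median GC of 48.0%, those that were lower 52.7% and the 22 not called 52.4%. The GC of the mt-Nd genes was 33.0 to 41.1%, and 932 nuclear genes at or below 41.1% had a median log2 fold change of 0.54, with 24.9% below 0. All 7 mt-Nd genes were below 0, but mt-Nd4l, which shares an mRNA with mt-Nd4, only at -0.01 on few reads. The part of GC-dependent amplification in these values was not tested.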

How the data were processed

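Per the labels' protocols, RNA from pooled oocytes was amplified and sequenced; the growth protocol speaks of a microarray, whereas the values are those of sequencing. The tools named in the submitters' processing notes are cutadapt, HISAT2 and HTSeq, with GRCm38 (mm10) as the build; the sources used here give neither versions nor annotation release nor counting options. The authors deposited FPKM values in a table of 21959 genes by 8 libraries, of which 21851 matched a symbol in GENCODE M21. Multiplied by exon length, 97.4% to 97.6% of values per library were whole reads within 0.02, which gave depths and floors; reads without molecular identifiers are not independent molecules, so these cover counting error only.

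The test was limma 3.58.1 (R 4.3.3), for the 11235 genes reaching 1 FPKM in at least 4 libraries, on log2(FPKM + 1), knockout minus wild type, with eBayes trend and Benjamini-Hochberg adjustment over all tested genes, threshold 0.05. This scale understates changes of low genes; folds given as ratios are ratios of mean FPKM. Steps were tested on simulated data. Recovered reads of libraries of the same genotype differed by more than counting error in every pair (chi-square over its degrees of freedom 33.6 or more). Members and gene lists were chosen with earlier results of these data known. The values of 1 member are not reported here. Values in every library are given for the mt-Nd genes, the nuclear core subunits, the called Ndufaf genes, and the called nuclear subunits with the 6 greatest rises and 6 greatest falls and at least 5 FPKM; other lists are represented by up to 3 called genes with the largest changes. Ecsit, Tmem126b, Timmdc1, Ndufa12, Ndufb7, Ndufc1 and Ndufab1 were singled out after their values were seen. Alternatives covered pseudocounts, filters, scalings, a replicate block, a GC correction (loess, span 0.5), eBayes without trend, limma-voom and left-out libraries. Figures used Python 3.11.15 and matplotlib 3.10.9.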

Additional observations from a re-analysis of the deposited data

Results flagged for a closer look

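In each genotype the 4 libraries of every tested member were compared, and in 6 of 104 such groups 1 library stood apart by Dixon's criterion on the gap to the nearest library, where chance gives about 1 in 20. KO2 stood apart for Ndufaf8 at 98.8 FPKM, above the other knockout libraries, and for Ndufb8 at 26.2 FPKM. KO3 stood apart for Ndufb4 at 115.5 FPKM. WT3 stood apart for Ndufa7 at 343.5 FPKM and for mt-Nd5 at 1803 FPKM, and WT4 for Ndufaf3 at 38.7 FPKM. Each of these 6 values was the highest of its genotype. Of these genes mt-Nd5 and Ndufaf8 were called.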

How the results depend on the processing

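Over 20 alternatives and 41 genes, 817 values could be computed: 689 kept direction and side of the threshold, 93 kept direction and lost the call, 21 gained it and 14 changed sign. Of 32 called genes 18 were called under every alternative run, among them Ndufs1, Ndufs8, Ndufs6, Ndufv3, Ndufaf1, Ndufaf4, Ndufaf7, mt-Nd2 and mt-Nd3. No called gene changed sign. After the GC correction, with or without the replicate block, Ndufv1 stood at 0.28, Ndufv2 at -0.25, Ndufb7 at 0.23 and Ndufc1 at -0.11, none called. mt-Nd4l stood at 0.11 with median-of-ratios scaling, at 0.26 without WT3, KO2 and KO3, at -0.14 to 0.17 with single libraries left out, and at -0.64 after the GC correction. The GC correction moved mt-Nd1 to -1.67 (limma adjusted p = 0.00441) and mt-Nd6 to -1.46 (adjusted p = 0.000677). Calls were lost under 13 alternatives for Ndufs4, 12 for Ndufc2, 11 for mt-Co3, 9 each for Ndufa9 and Ndufs5, and 8 for mt-Co1. mt-Nd4 lost its call without KO1, KO4, WT3 or WT4 in turn. The causes were not tested.

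Lower mt-Nd genes, 4 as reported, numbered 2 without a filter on low values, 6 with the GC correction and 3 to 5 with single libraries left out. Higher nuclear subunit genes, 6 as reported, numbered 3 without a filter, 3 with eBayes without trend, 4 with the GC correction or limma-voom, 8 with median-of-ratios scaling and 2 to 6 with single libraries left out; lower ones, 8 as reported, numbered 6 to 10 over all alternatives. Lower Ndufaf genes, 2 as reported, numbered 1 with a pseudocount of 0.1, no filter, median-of-ratios scaling, the GC correction with or without the block, eBayes without trend or limma-voom, and 1 to 2 with single libraries left out. Higher assembly factors with other names, 1 as reported, numbered 2 with median-of-ratios scaling, 0 with a filter at 5 FPKM, which Acad9 did not pass, and 1 to 2 with single libraries left out. Other mitochondrially encoded genes called lower, 3 as reported, numbered 5 with the GC correction with or without the block, 1 with median-of-ratios scaling, 0 without a filter and 1 to 5 with single libraries left out. Higher upkeep genes and regulators, 0 as reported (0 by limma-voom too), numbered 4 with median-of-ratios scaling, 1 with the filter at 5 FPKM, 1 with the replicate block alone or with the GC correction, 2 without WT3, KO2 and KO3, and 0 to 1 with single libraries left out. Median-of-ratios scaling moved the median log2 fold change of all genes to 0.00, beside -0.12 as reported. It moved that of mt-Nd genes to -0.64, of nuclear subunit genes to -0.12 and of Ndufaf genes to 0.25. The GC correction moved the medians of mt-Nd genes to -1.67 and of nuclear subunit genes to -0.08.

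The replicate numbers did not consistently pair the libraries: correlations of deviations between libraries of the same number were 0.19, 0.02, 0.36 and -0.05. Between libraries of unlike number they ran from -0.34 to 0.33, so KO3 with WT3, at 0.36, was the highest of all pairs. With the number as a replicate block 44.8% of genes were called (2113 higher and 2921 lower), with 5 lower mt-Nd genes and 5 higher and 8 lower nuclear subunit genes. Tubes of few amplified cells and 4 libraries per genotype limit the precision, and mt-Nd4l rested on few reads in every library.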
